A study of Mus musculus with 7 samples.

Results

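The 7 genes described here handle iron and heme: Hmox1, Cd163, Ftl1, Fth1, Slc40a1, Slc11a1 and Tfrc. They were chosen by symbol for their roles and not by their values, though with earlier results of these data known. All 7 were found among the 33696 genes counted. They were measured by single-cell RNA sequencing in 7 mouse malignant peripheral nerve sheath tumors (MPNST), a sarcoma of the nerve sheath. Every tumor was grown from JW23.3, a single male mouse MPNST cell line with mutant Nf1 and Trp53, implanted as 5000000 cells under the skin of wildtype female C57/B6 mice aged 5 to 6 weeks. The irradiated group (n = 4 tumors) received 5 daily fractions of 2 Gy, with lead shielding of the body outside the tumor, and the control group (n = 3 tumors) received none. All tumors were taken on day 21 after implantation, dissociated with papain and passed through a red cell lysis buffer, and each gave 1 library. The questions asked are which cells of the tumor hold these transcripts and whether irradiated tumors differ from controls in them.

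Macrophages recycle most of the body's iron. They take up hemoglobin, bound to haptoglobin, through the scavenger receptor CD163. Heme oxygenase 1, the product of Hmox1, opens the heme ring and frees the iron. Ferritin, a shell of heavy (Fth1) and light (Ftl1) chains, stores that iron, and ferroportin (Slc40a1), the known iron exporter of mammalian cells, releases it. NRAMP1 (Slc11a1) pumps metal ions out of the phagosome, and the C57BL/6 strain is known to carry a loss-of-function allele of it. The transferrin receptor (Tfrc) brings in iron from the blood and is known to be high in dividing cells.

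Several of these mRNAs carry an iron-responsive element, a short stem-loop bound by iron regulatory proteins when iron is scarce. In a 5′ UTR the bound protein blocks translation, and in the 3′ UTR of Tfrc it protects the mRNA from decay. These sequences are shown because they are the shared regulatory feature of the genes, and because they act partly after transcription, which counts of mRNA do not measure. A 17-base pattern was searched on the sense strand of every GENCODE M21 protein-coding gene (GRCm38): a C, 5 bases, the loop CAGTGN, and 5 bases that pair with the 5 before the loop, G-T pairs allowed. The loop is in capitals below.
Fth1, 5′ UTR, plus strand, chr19:9982738-9982754: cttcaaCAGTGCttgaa
Ftl1, 5′ UTR, minus strand, chr7:45459785-45459801: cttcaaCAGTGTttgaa
Slc40a1, 5′ UTR, minus strand, chr1:45925471-45925487: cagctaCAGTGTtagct
Tfrc element 1, 3′ UTR, plus strand, chr16:32631225-32631241: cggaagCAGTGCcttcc
Tfrc element 2, 3′ UTR, plus strand, chr16:32631604-32631620: cgggagCAGTGTcttcc
Tfrc element 3, 3′ UTR, plus strand, chr16:32631669-32631685: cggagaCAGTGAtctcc
Tfrc element 4, 3′ UTR, plus strand, chr16:32631716-32631732: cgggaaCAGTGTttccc
The pattern was found in these 4 of the 7 genes and, among 60 other iron and heme genes listed for comparison, in Keap1 only, within its coding sequence. Of 21901 genes searched, 31 (0.142%) held it in a 5′ UTR and 129 (0.589%) in a 3′ UTR. Hmox1, Cd163 and Slc11a1 had no match to these letters. An element that departs from these letters or this pairing would be missed, so the search need not list every element of a gene. The stems of Fth1 and Ftl1 were the same in letters, and the loops differed in their last base.

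In the same build, Hmox1 (5 exons) lies at chr8:75093621-75100589, Cd163 (17 exons) at chr6:124304656-124330527, Ftl1 (4 exons) at chr7:45457944-45459884, Fth1 (5 exons) at chr19:9980598-9985098, Slc40a1 (8 exons) at chr1:45908068-45926523, Slc11a1 (15 exons) at chr1:74375195-74386062 and Tfrc (19 exons) at chr16:32608920-32632794, with exons counted in the longest coding transcript. Ftl1 overlaps the annotated genes Gm22133 (same strand) and Gm10252 (other strand), and the other members overlap no annotated gene. The ferritin light chain also has a near-identical copy, Ftl1-ps1, which was counted separately at a median of 1.04% of the Ftl1 count in macrophage-like cells, so reads shared between such copies make ferritin levels less certain than those of the other members.

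The libraries held 53496570 to 153044123 UMIs (unique molecular identifiers, each standing for 1 captured mRNA molecule), and 34300 of 39537 deposited cells were retained. Library pairs shared 3 to 19 cell barcodes, at most 0.397% of the smaller library. Cells were grouped by clustering without the 7 genes or the 60 listed ones and named from markers: 17577 MPNST-like, 12689 macrophage-like, 1585 T/NK-like, 628 endothelial-like, 481 fibroblast-like, 414 dendritic-like and 244 pericyte-like cells. Of the marker lists, 15 of 15 macrophage and 11 of 14 MPNST markers were detected in every tumor. Levels are given in CPM, the UMIs of a gene scaled to a fixed total of UMIs of that cell class in that tumor, so that the tumor is the replicate. Levels are compared between classes as a description, without a test, because the classes come from the same libraries. A pericyte-like value is missing for irradiated 4, which had 14 such cells, below the minimum of 20. No label gives a batch. By depth and quality alone the tumors parted, not sharply, into set 1 (irradiated 1, control 2 and control 3) and set 2 (the other 4 tumors). Differences are also given within each, as the log2 ratio of mean CPM, with too few tumors for a test. Set 1 holds 1 irradiated tumor and set 2 holds 1 control (control 1), so each such value rests on a single tumor on 1 side.

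Of the 7 classes compared, macrophage-like cells had the highest median levels of Hmox1, Cd163, both ferritin chains and Slc11a1. A cluster of 50 granulocyte-like cells, too few per tumor to be compared, is left out of this order. Slc40a1 and Tfrc were not among these genes: the exporter was almost undetected in macrophage-like cells and was found in MPNST-like and fibroblast-like cells, and the transferrin receptor was highest in T/NK-like and MPNST-like cells. The plot of the 7 genes by cell class shows the value of every tumor.

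**Figure D1:**
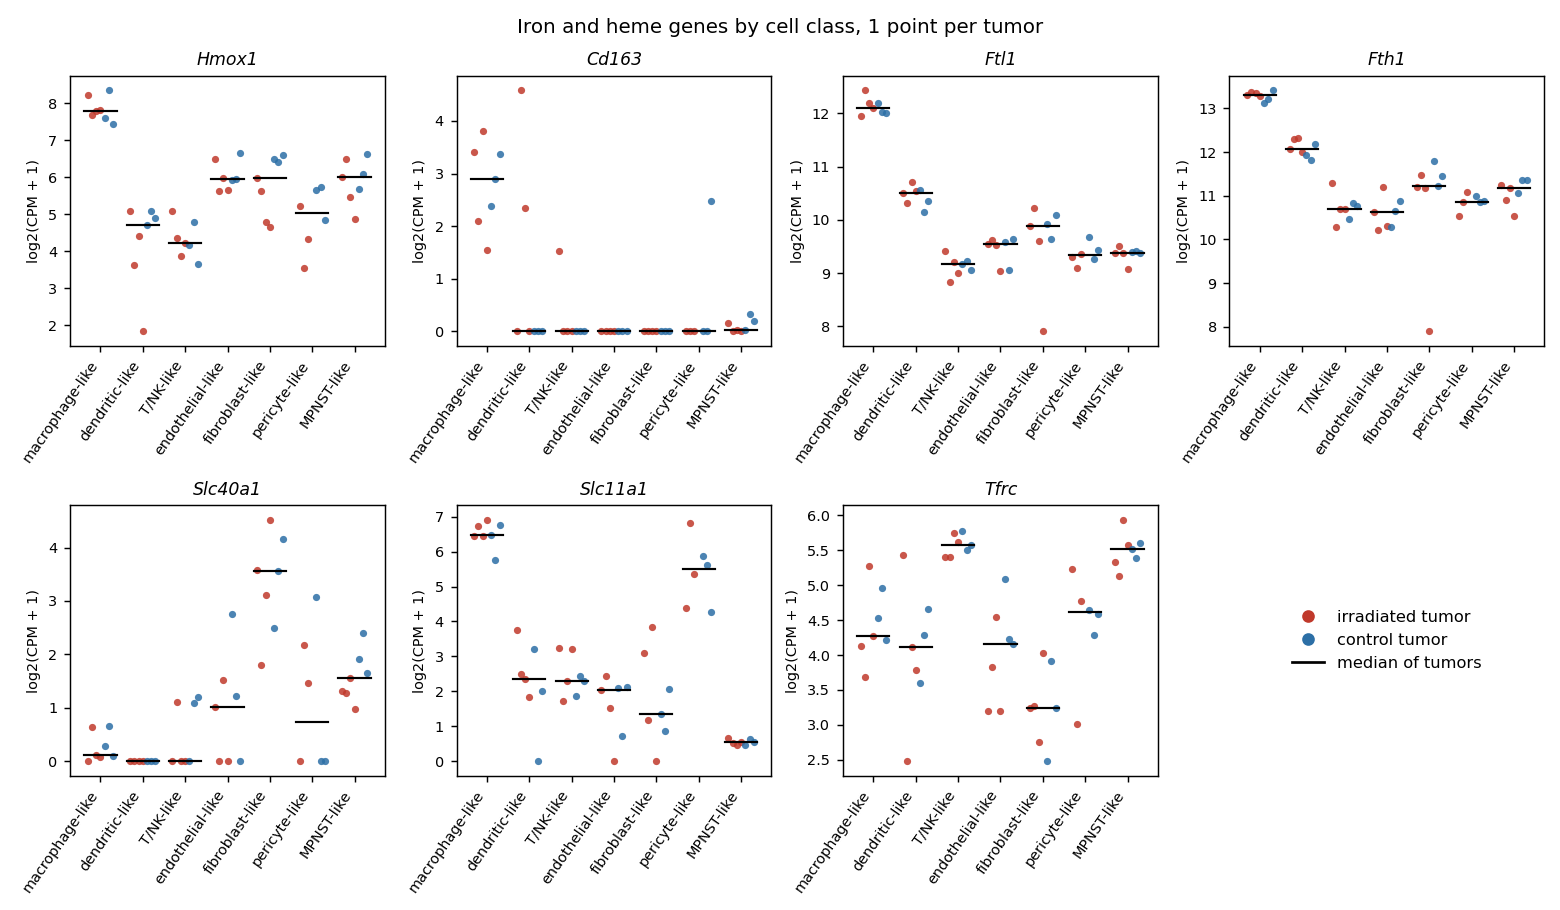
Level of each gene on the log2(CPM + 1) scale (y axis, which starts above 0 where all values are high) in each cell class (x axis), with 1 point per tumor, red for irradiated and blue for control, and a black line at the median. Among the 7 classes plotted, Hmox1, Ftl1, Fth1 and Slc11a1 were highest by median in macrophage-like cells, while Slc40a1 was highest in fibroblast-like cells and Tfrc in T/NK-like and MPNST-like cells.

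Hmox1, the heme-degrading enzyme, stood in macrophage-like cells at 296, 206, 221 and 224 CPM in irradiated tumors 1 to 4 and at 195, 325 and 174 CPM in control tumors 1 to 3. Control 2 and irradiated 1 were the highest, and the groups overlapped. The median of 221 CPM was 3.49-fold the MPNST-like median of 63.3 CPM (range 28.2 to 98.2), and macrophage-like cells lay above MPNST-like cells in 7 of 7 tumors with no overlap of ranges. The neighbors in the order, MPNST-like, fibroblast-like (62.6 CPM) and endothelial-like (60.4 CPM) cells, overlapped and did not differ beyond their spread. Pericyte-like (32 CPM), dendritic-like (24.9 CPM) and T/NK-like cells (17.7 CPM) had lower medians. After each cell was thinned to 2000 UMIs, a median of 25% of macrophage-like cells held an Hmox1 UMI, against 9.92% of MPNST-like and 1.90% of T/NK-like cells. Without thinning these shares were 54.7%, 47.1% and 5.38%, at median depths of 6370, 22134 and 3096 UMIs per cell.

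RNA freed from other cells can add such UMIs, so the complement genes C1qa, C1qb and C1qc, which macrophages make, were measured in the same way. Their summed level in MPNST-like cells was 0.463% of that in macrophage-like cells, whereas Hmox1 was at 21.3%, Ftl1 at 14.4% and Fth1 at 23.8%, each above the C1q share in 7 of 7 tumors. In T/NK-like cells the C1q share was 4.30% and that of Hmox1 8.22%. Transcripts of red blood cells (6 erythroid markers, hemoglobins included) were also uneven: their summed level in macrophage-like cells was 108 CPM in control 2 and at most 3.22 CPM in the other tumors. Control 2 also had the highest macrophage-like Hmox1 level, and the part of red cell transcripts in that level was not tested.

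Cd163, the hemoglobin receptor, was a rare transcript, with 768 UMIs in all cells together, of which 668 came from macrophage-like cells. Its macrophage-like levels were 9.59, 3.28, 12.9 and 1.94 CPM in irradiated tumors 1 to 4 and 4.22, 6.44 and 9.29 CPM in controls 1 to 3. The irradiated tumors thus held both the highest and the lowest value. No Cd163 UMI was found in endothelial-like or fibroblast-like cells, and the MPNST-like median was 0.0251 CPM. Dendritic-like cells of irradiated 2 reached 22.9 CPM, but all 10 UMIs came from 1 of the 39 cells, and no dendritic-like cell of 5 other tumors held one.

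The ferritin chains were the most abundant of the 7 transcripts. Fth1 was at 10201, 10676, 10454 and 9916 CPM in macrophage-like cells of irradiated tumors 1 to 4 and at 8932, 9515 and 10919 CPM in controls 1 to 3. Ftl1 was at 3931, 5529, 4670 and 4409 CPM in the irradiated tumors and at 4689, 4186 and 4115 CPM in the controls. For both chains the groups overlapped. Dendritic-like cells came next, with medians of 4280 CPM for Fth1 and 1443 CPM for Ftl1, and MPNST-like cells had 2299 and 668 CPM. When cells were assigned one by one from markers, 117 of the 414 dendritic-like cells were drawn as dendritic and 150 as macrophage cells, and the part of these cells in the dendritic-like ferritin level was not tested. Together the chains made up a median of 1.43% of all UMIs in macrophage-like cells (range 1.36 to 1.62) and 0.296% in MPNST-like cells (range 0.203 to 0.331). The ratio of Fth1 to Ftl1 UMIs was 2.25 in macrophage-like cells (range 1.90 to 2.65) and 3.48 in MPNST-like cells (range 2.65 to 3.96).

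Slc40a1, the iron exporter, gave 22 UMIs in 12689 macrophage-like cells, a median of 0.0784 CPM (range 0 to 0.585). MPNST-like cells held 1088 of the 1245 UMIs of the gene, and their levels were 1.5, 1.42, 1.95 and 0.974 CPM in irradiated tumors 1 to 4 and 2.76, 4.27 and 2.14 CPM in controls 1 to 3. Every control thus lay above every irradiated tumor, a difference taken up below. Per UMI counted, fibroblast-like cells were richer, with a median of 10.7 CPM (range 2.48 to 21.9) from 61 UMIs in all. In dendritic-like cells no UMI was found.

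Slc11a1, the phagosomal metal transporter, was at 86.5, 106, 86.7 and 119 CPM in macrophage-like cells of irradiated tumors 1 to 4 and at 89.0, 53.5 and 107 CPM in controls 1 to 3. Control 2 was the lowest, and the groups overlapped. Macrophage-like cells held a median of 92.5% of its UMIs per tumor, and its MPNST-like median of 0.449 CPM was 0.436% of the macrophage-like level, near the 0.463% of C1q. Pericyte-like cells were the exception among the other classes, with a median of 44.2 CPM (range 18.4 to 113), which was 55.4% of the macrophage-like level against 2.99% for C1q, and was above the C1q share in 6 of 6 tumors. There, 63 of 244 cells (25.8%) held a Slc11a1 UMI. C1q reached 1316 CPM in these 63 cells, 107 CPM in the other pericyte-like cells and 11507 CPM in macrophage-like cells. Rgs5, a pericyte marker, was detected in 87.3% of cells with a Slc11a1 UMI and in 95.6% of those without. Without the 5 cells called doublets, the median was 44.0 CPM.

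Tfrc, the transferrin receptor, was at 39.1, 33.9, 60.2 and 46.5 CPM in MPNST-like cells of irradiated tumors 1 to 4 and at 44.9, 41.1 and 47.7 CPM in controls 1 to 3. T/NK-like cells were level with them at a median of 46.7 CPM (range 41.3 to 54.0) against 44.9 CPM, ranges that overlapped. Pericyte-like (23.5 CPM), macrophage-like (18.4 CPM), endothelial-like (16.9 CPM), dendritic-like (16.3 CPM) and fibroblast-like cells (8.45 CPM) followed, with overlapping ranges among neighbors. In thinned cells a Tfrc UMI was found in a median of 8.0% of T/NK-like, 7.17% of MPNST-like and 2.39% of macrophage-like cells.

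Because MPNST-like cells were both numerous and deep (a median of 49.9% of cells and 76.9% of UMIs per tumor), the classes shared the total mRNA of the 7 genes unequally. MPNST-like cells held a median of 85.4% of Tfrc, 87.9% of Slc40a1, 51.3% of Hmox1, 52.0% of Fth1 and 39.8% of Ftl1 UMIs. Macrophage-like cells, with 16.3% of UMIs, held 43.7% of Hmox1, 41.7% of Fth1, 53.5% of Ftl1 and 85.9% of Cd163 UMIs.

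Among macrophage-like cells, 7 subsets were gated on marker genes in cells thinned to 2000 UMIs, and they divided the 7 genes further. They were the Mrc1 C1q subset (4012 cells), which carries markers of resident-type macrophages, the Chil3 Slfn4 Arg1 subset (824), Ly6c2 monocytes (646), cycling cells (582), the interferon-inducible Cxcl9 subset (484), the Fcgr4 Ms4a7 subset (440) and the Acp5 Atp6v0d2 subset (304), whose markers are those of osteoclasts. A further 3800 cells met no gate and 1597 were too shallow. Ly6c2 monocytes were not measured in irradiated 1 (19 cells), and the Acp5 Atp6v0d2 subset was not measured in irradiated 2 (19 cells) or irradiated 4 (16 cells).

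**Figure D2:**
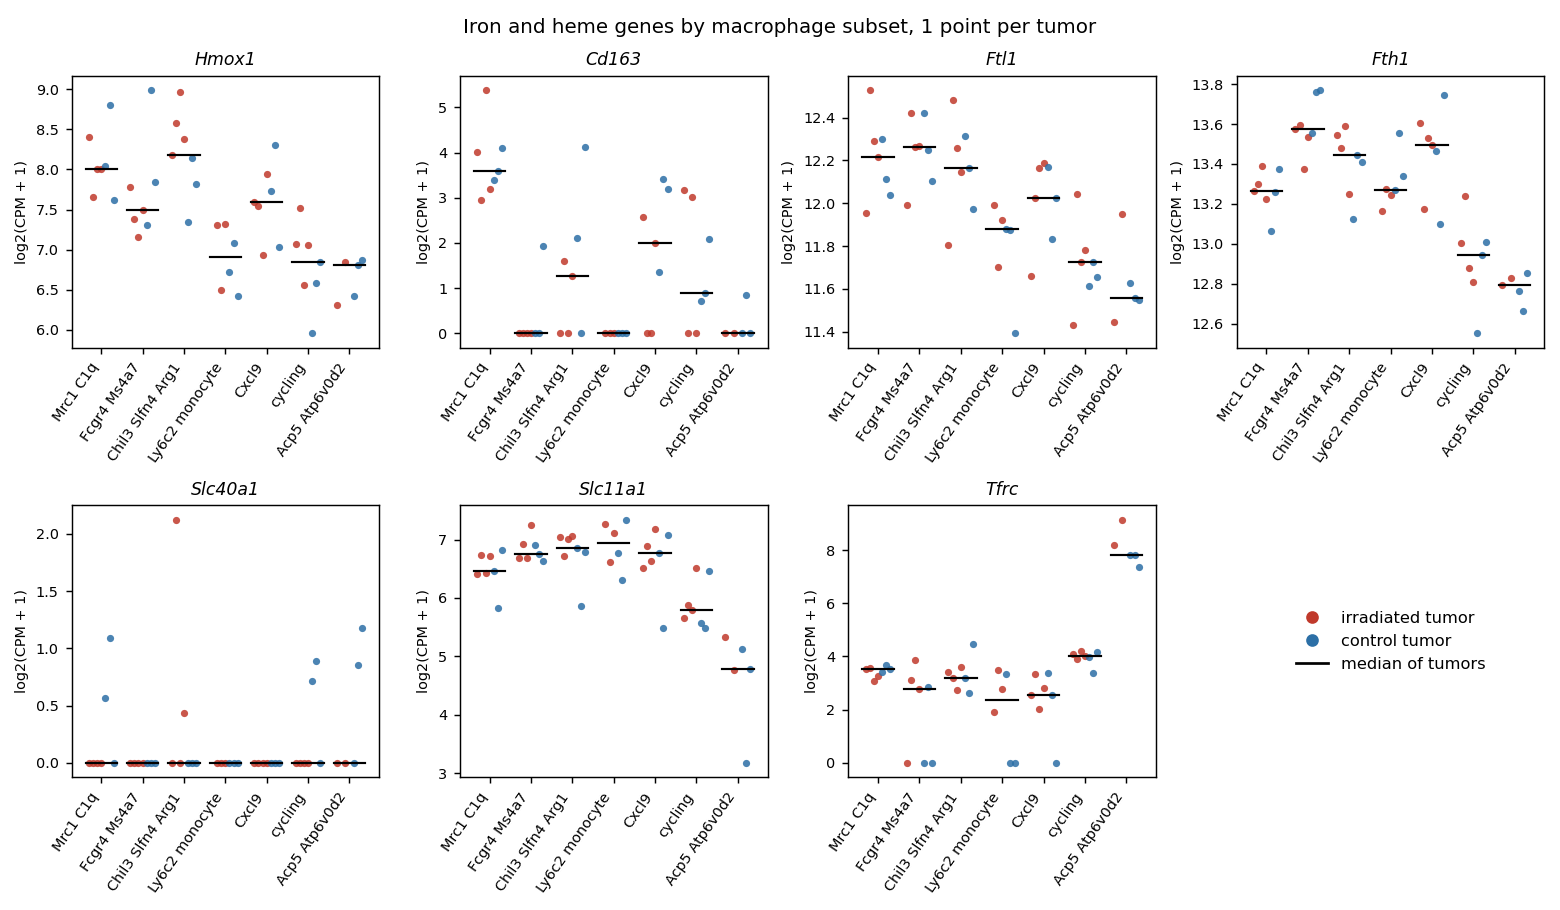
Level of each gene on the log2(CPM + 1) scale (y axis, which starts above 0 where all values are high) in the 7 macrophage subsets (x axis), with 1 point per tumor, red for irradiated and blue for control, and a black line at the median. The Acp5 Atp6v0d2 subset stood above all others for Tfrc and below them for Slc11a1 by median, and Cd163 was highest by median in the Mrc1 C1q subset.

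Tfrc parted the subsets most. In Acp5 Atp6v0d2 cells it was at 290 CPM in irradiated 1, 560 CPM in irradiated 3, and 224, 227 and 165 CPM in controls 1 to 3. In each of these 5 tumors the value lay above that of every other subset measured. The other subset medians ran from 4.32 CPM in Ly6c2 monocytes to 15.2 CPM in cycling macrophages, so the Acp5 Atp6v0d2 median was 15-fold that of cycling cells and 21.4-fold that of Mrc1 C1q cells (10.6 CPM). The macrophage-like cluster led by Acp5, Atp6v0d2 and St18 had a Tfrc median of 169 CPM, against 4.68 to 14.9 CPM in the other 5 macrophage-like clusters. The same subset had the lowest median of Slc11a1 (26.4 CPM, against 54.6 to 123), below every other subset in each tumor where both were measured. Its medians were 3011 CPM for Ftl1, 7107 CPM for Fth1 and 111 CPM for Hmox1, with ranges that overlapped those of cycling macrophages. It lay above cycling macrophages in 3, 1 and 4 of the 5 shared tumors for these 3 genes.

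Cd163 belonged to the Mrc1 C1q subset by level. It was at 15.2, 6.67, 40.5 and 8.14 CPM there in irradiated tumors 1 to 4 and at 9.44, 11 and 16.1 CPM in controls 1 to 3, and 484 UMIs of the gene came from these cells. The next highest median was 3.02 CPM in Cxcl9 cells, from 14 UMIs, and Ly6c2 monocytes held none. Hmox1 was highest by median in Chil3 Slfn4 Arg1 cells (290 CPM, range 162 to 498) and Mrc1 C1q cells (256 CPM, range 196 to 446), followed by Cxcl9 (191 CPM), Fcgr4 Ms4a7 (180 CPM), Ly6c2 (120 CPM) and cycling cells (114 CPM). The ranges of the highest 4 overlapped. Ferritin varied less: the Fth1 medians of the subsets ran from 7107 to 12205 CPM, the highest in Fcgr4 Ms4a7 cells, and the Ftl1 medians from 3011 to 4919 CPM. Slc40a1 gave at most 8 UMIs in any subset.

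As a description of which genes ran in parallel, each member was correlated with 7960 genes over 40 sums, 1 for each macrophage-like cluster and tumor, points that share tumors and depth. Hmox1 ran most closely with Blvrb (Pearson r = 0.783), which encodes a biliverdin reductase, and then with Cebpzos (0.781) and Ninj1 (0.778). Tfrc ran with Ctsk (0.912), Slc9b2 (0.900) and Mmp9 (0.899), and Ctsk is one of the markers of the Acp5 Atp6v0d2 gate. Slc11a1 ran with Slc15a3 (0.911), Ccrl2 (0.896) and Tnfrsf1b (0.889). Cd163 ran with Twf1 (0.849), Ctsd (0.835) and Ltc4s (0.819), although 27 of the 40 points held a Cd163 UMI. Ftl1 ran with Grcc10 (0.879), Vamp8 (0.869) and Selenow (0.851), and Fth1 with Gngt2 (0.891), Sh3bp1 (0.868) and Clec4a3 (0.848). Slc40a1 was too sparse to be correlated.

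MPNST-like cells were divided by 4 proliferation genes (Mki67, Top2a, Birc5 and Cdk1) in thinned cells, with at least 2 detected in cycling cells and none in cells not cycling. Cycling cells had more transferrin receptor and less heme oxygenase and exporter mRNA in every tumor. Tfrc had a median of 68.2 CPM (range 62.1 to 106) in cycling and 33.5 CPM (range 27.9 to 41.0) in other cells, 2.03-fold higher, and was higher in 7 of 7 tumors. Hmox1 had 20.5 CPM (range 16.2 to 28.1) against 78.0 CPM (range 33 to 132), and was lower in 7 of 7 tumors. Slc40a1 had 0.301 CPM against 2.59 CPM, again lower in 7 of 7 tumors. Ftl1 was slightly higher in cycling cells, 1.15-fold by median and in 7 of 7 tumors, and Fth1 was higher in 2 of 7. The cycling share was 8.91% ± 2.04 of MPNST-like cells in the 4 irradiated tumors and 9.0% ± 2.67 in the 3 controls (mean ± SD, 2-sided exact permutation p = 1).

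**Figure D3:**
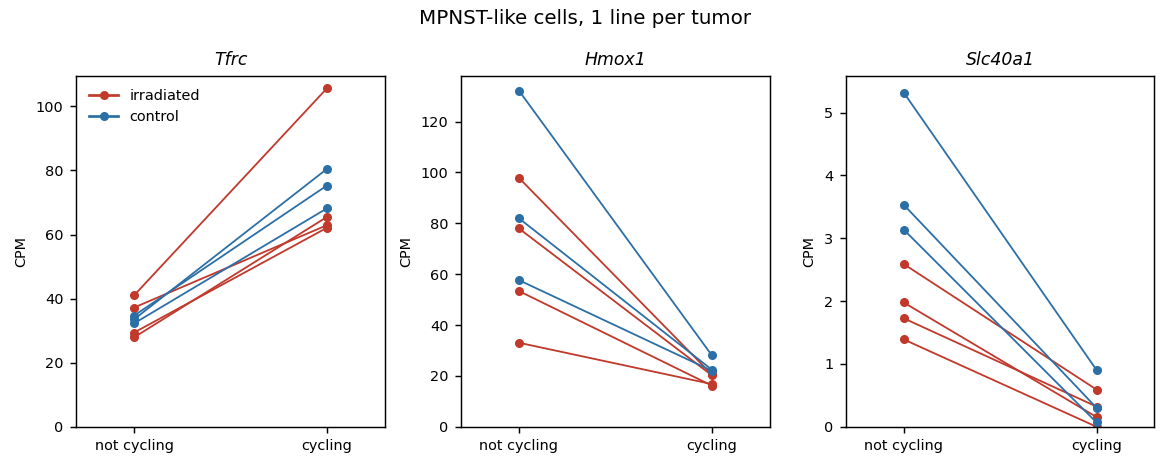
CPM (y axis) of Tfrc, Hmox1 and Slc40a1 in MPNST-like cells that were not cycling or cycling (x axis), with 1 line per tumor, red for irradiated and blue for control. All 7 lines rise for Tfrc and fall for Hmox1 and Slc40a1.

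The same genes varied over the 13 MPNST-like clusters. Tfrc had its lowest median, 12.5 CPM, in the cluster led by Eln, Mest and Pdzrn4, where Hmox1 had its highest, 116 CPM. Tfrc had its highest, 77.1 CPM, in the cluster led by Hmga2, Gria1 and Tafa1, where Hmox1 was at 22.3 CPM. Slc40a1 reached 6.13 CPM in the cluster led by Col2a1, Matn4 and Unc5c and was not found in that led by Sema3a, Robo2 and Col11a1. Fth1 ranged from 1218 to 4301 CPM, the highest in the cluster led by Crabp1, Lgals7 and H19. The cluster led by Sema3a, Robo2 and Col11a1 had a median depth of 0.096 of the library median. That led by Crabp1, Lgals7 and H19 had 0.268, against 1.41 to 3.62 in the other MPNST-like clusters. The part of depth in these values was not tested.

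The comparison of irradiated with control tumors was made by edgeR's quasi-likelihood test on the summed counts, with p values adjusted over all genes of each fit (Benjamini-Hochberg). Over 7 cell classes and 6 macrophage subsets, 60 tests of the members were possible. None passed an adjusted p of 0.05, and the smallest adjusted p was 0.83. By DESeq2 none passed either. Of the 60, 3 had an unadjusted p below 0.05, and the same 3 had groups that did not overlap: Slc40a1 in MPNST-like cells, Hmox1 in fibroblast-like cells and Hmox1 in Chil3 Slfn4 Arg1 macrophages. Over all genes tested, 1.66% to 5.84% had an unadjusted edgeR p below 0.05 from fit to fit, and 2.64% to 11.6% had groups apart. In simulated counts, 200 genes drawn from all genes tested were changed at once. The test recovered 51% of 2-fold and 84% of 4-fold changes among 13030 genes in macrophage-like cells. Among 17753 genes in MPNST-like cells it recovered 41% and 74%, and 8.16% and 8.73% of the respective calls were false. These shares do not give the recovery for a rare member, or where few genes change, which was not simulated.

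**Figure D4:**
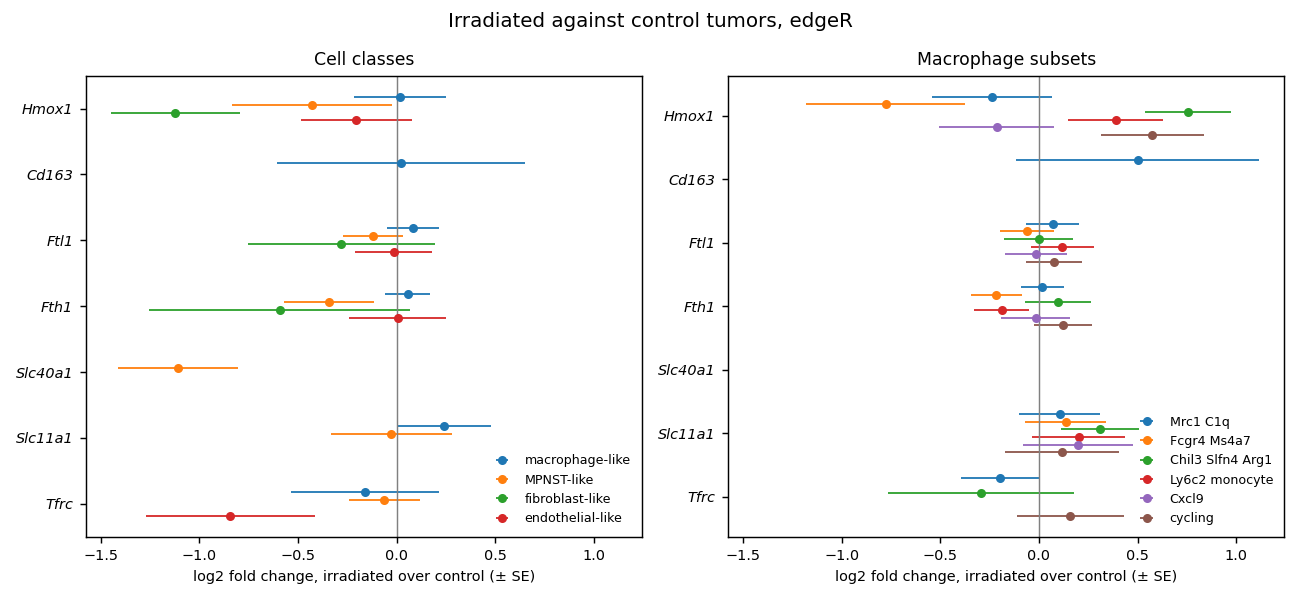
edgeR log2 fold change, irradiated over control (x axis), with its SE as a bar, for each gene (y axis) in 4 cell classes (left) and 6 macrophage subsets (right), each colored as in its legend. Genes with too few counts to be tested have no point. Most points lie within 1 unit of 0, and Slc40a1 in MPNST-like cells (-1.11) and Hmox1 in fibroblast-like cells (-1.12) lie lowest among the classes.

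In macrophage-like cells, 6 members could be tested, 0 were called (0% of 13030 genes) and in none were the groups apart (5.42% of genes). No member had an unadjusted p below 0.05 (5.84% of genes). Of the 6, 5 had a fold change above 0, with values between -0.16 and 0.24 on the log2 scale. Slc11a1 had 0.24 (SE 0.23), but 0.0097 without control 2. The others had 0.08 (Ftl1, SE 0.13), 0.06 (Fth1, SE 0.11), 0.02 (Cd163, SE 0.63), 0.02 (Hmox1, SE 0.23) and -0.16 (Tfrc, SE 0.38). The SE of Cd163, the rarest of the 6, was the largest.

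In MPNST-like cells, 6 members could be tested and 0 were called (0% of 17753 genes). All 6 fold changes were below 0, with a median of -0.23 against 0.0037 over all genes. They were -1.11 for Slc40a1 (SE 0.31), -0.43 for Hmox1 (SE 0.41), -0.34 for Fth1 (SE 0.23), -0.12 for Ftl1 (SE 0.15), -0.06 for Tfrc (SE 0.18) and -0.03 for Slc11a1 (SE 0.31). The signs of Tfrc and Slc11a1 were not stable: with tumors left out in turn, they reached 0.049 and 0.079. In 1 of the 6, Slc40a1, the groups were apart, against 2.64% of all genes tested, 1.15% with the irradiated tumors lower, and its unadjusted p was below 0.05, against 1.66% of genes. The irradiated mean was 1.46 CPM ± 0.398 (SD, n = 4), against 3.06 CPM ± 1.10 (SD, n = 3) for controls. The unadjusted edgeR p of this difference was 0.00574 and the edgeR adjusted p was 0.995. The log2 ratio of mean CPM was -1.12 within set 1 and -0.93 within set 2. The edgeR log2 fold change ran from -1.27 to -0.81 when each tumor was left out, the last without control 2. Among cells not cycling the levels were 1.98, 1.73, 2.59 and 1.39 CPM in irradiated tumors 1 to 4 and 3.53, 5.32 and 3.14 CPM in controls 1 to 3, again without overlap. By cluster, the irradiated mean was lower in 7 of the 10 MPNST-like clusters compared. In 1 of these, led by Hmga2, Lingo2 and Unc13c, that rested on 1 UMI. The cluster led by Sema3a, Robo2 and Col11a1 held no Slc40a1 UMI in either group. That led by Crabp1, Lgals7 and H19 held 7 UMIs, with the irradiated mean higher (0.981 against 0.660 CPM). The irradiated mean was also higher in the cluster led by Col2a1, Matn4 and Unc5c, from 215 UMIs. It was 11.2 CPM there (n = 3) against 6.73 CPM in controls (n = 3). The 6 tumors ran from 0.431 to 30.2 CPM in that cluster (median 6.13). The highest value was that of an irradiated tumor, and the higher mean rests on it. That cluster held 389, 140, 35 and 7 cells in irradiated tumors 1 to 4 and 199, 522 and 306 in controls 1 to 3. The part of the cluster mix in the Slc40a1 difference was not tested. The red cell transcripts in MPNST-like cells were at 279 CPM in control 2 and 107 CPM in irradiated 2, against 1.55 to 3.83 CPM in the other tumors, and their part in the Slc40a1 difference was not tested.

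**Figure D5:**
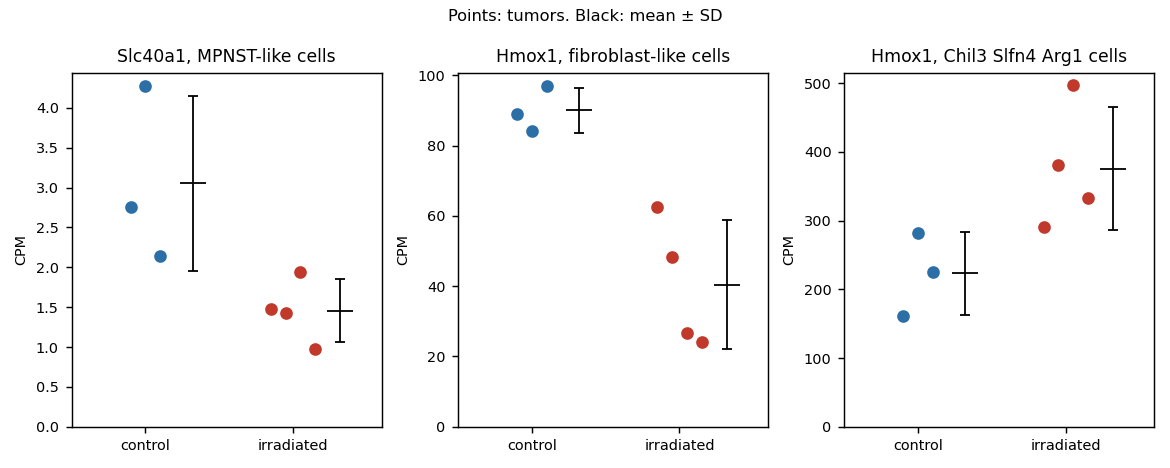
CPM (y axis, from 0) of Slc40a1 in MPNST-like cells, Hmox1 in fibroblast-like cells and Hmox1 in Chil3 Slfn4 Arg1 macrophages in control (blue, n = 3) and irradiated (red, n = 4) tumors, with 1 point per tumor and the mean ± SD in black. The groups do not overlap in any of the 3 panels, and none of the differences passed the adjusted threshold.

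In fibroblast-like cells Hmox1 was at 62.6, 48.4, 26.7 and 24.1 CPM in irradiated tumors 1 to 4 and at 89.1, 84.2 and 96.9 CPM in controls 1 to 3. All controls were higher, by a log2 fold change of -1.12 for irradiated over control tumors (SE 0.33). The unadjusted edgeR p was 0.00649 and the edgeR adjusted p 0.934. It was 1 of 3 members tested there, 0 of which were called (0% of 9007 genes), and 4.62% of genes had groups apart, 1.57% with the irradiated tumors lower, while 2.86% had an unadjusted p below 0.05. The log2 ratio of mean CPM was -0.53 within set 1 and -1.43 within set 2. The ribosomal share of UMIs in these cells was 8.26%, 7.21%, 4.93% and 2.27% in irradiated tumors 1 to 4, the same order as Hmox1, and 7.73%, 9.53% and 9.65% in controls 1 to 3, and its part in the Hmox1 difference was not tested. Fibroblast-like cells of irradiated 4, 31 cells, also had a mitochondrial share of 4.62% against 2.69% to 3.63% in the other tumors. Their Fth1 level was 236 CPM against 2321 to 3531 CPM elsewhere. Without that tumor the Hmox1 fold change was -0.95. When cells were assigned one by one from markers in place of clusters, it was -0.37, so its size rests on how fibroblast-like cells are drawn. The cells so drawn included 354 of the fibroblast-like cluster and 287 of MPNST-like clusters. The part of the latter in the smaller change was not tested.

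In Chil3 Slfn4 Arg1 macrophages Hmox1 was at 290, 380, 498 and 333 CPM in irradiated tumors 1 to 4 and at 162, 282 and 226 CPM in controls 1 to 3. Every irradiated tumor lay above every control, though irradiated 1 and control 2 were close, and the log2 fold change was 0.75 (SE 0.22). The unadjusted edgeR p was 0.0032 and the edgeR adjusted p 0.899. Here 5 members were tested, 0 were called (0% of 8435 genes), and 5.96% of genes had groups apart, 3.77% with the irradiated tumors higher, while 4.77% had an unadjusted p below 0.05. The log2 ratio of mean CPM was 0.19 within set 1 and 1.32 within set 2, and the edgeR log2 fold change was 0.52 without control 1. Across its alternatives the adjusted p ran from 0.0236, without the low-count filter, to 1.00, so the call depended on that filter. In the other subsets the Hmox1 fold change ranged from -0.78 (SE 0.40) in Fcgr4 Ms4a7 cells to 0.58 (SE 0.26) in cycling macrophages.

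In the remaining fits no member was called and none had groups apart. The shares called over all genes were 0% in T/NK-like, endothelial-like and pericyte-like cells and in the Mrc1 C1q, Cxcl9, Fcgr4 Ms4a7 and cycling subsets, 0.0423% in dendritic-like cells and 0.0638% in Ly6c2 monocytes. The shares with groups apart were 5.77% in T/NK-like, 6.06% in dendritic-like, 5.31% in endothelial-like and 6.64% in pericyte-like cells. In the subsets they were 4.76% in Mrc1 C1q, 11.6% in Ly6c2, 5.71% in Cxcl9, 4.93% in Fcgr4 Ms4a7 and 5.89% in cycling cells. The shares with an unadjusted p below 0.05, which no member had, were 4.45%, 4.71%, 4.2% and 1.7% in these 4 classes and 3.62%, 5.5%, 4.19%, 3.82% and 4.47% in these 5 subsets, in the same order. The values farthest from 0 there were -0.86 for Hmox1 in pericyte-like cells (SE 0.45), -0.84 for Tfrc in endothelial-like cells (SE 0.43) and -0.80 for Hmox1 in dendritic-like cells (SE 0.57). Tfrc in Acp5 Atp6v0d2 cells, with 2 irradiated tumors, was not tested.

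Per tumor, 10 ratios and shares were compared by 2-sided exact permutation tests over the 35 splits of the 7 tumors, whose smallest possible p is 0.0286. None passed (adjusted p 0.571 to 0.886). In macrophage-like cells the mean Fth1 to Ftl1 ratio was 2.25 ± 0.271 with irradiation (SD, n = 4) and 2.28 ± 0.374 without (SD, n = 3, exact p = 0.771). Ferritin made up 0.269% ± 0.0478 of MPNST-like UMIs with irradiation (SD, n = 4) and 0.314% ± 0.0291 without (SD, n = 3, exact p = 0.2). A Slc11a1 UMI was found in 18.6% ± 1.53 of thinned macrophage-like cells with irradiation (SD, n = 4) and in 15.2% ± 4.11 without (SD, n = 3, exact p = 0.2). Whether irradiation moved macrophage-like and MPNST-like cells differently was tested for Hmox1, Ftl1, Fth1 and Tfrc, and the differences between the log2 changes were 0.50, 0.16, 0.37 and -0.20 (exact permutation, adjusted p = 0.486 for each).

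The rest of the pathway was described from 60 genes in 9 roles. In macrophage-like cells 47 were tested, 19 above and 28 below 0, with a median log2 fold change of -0.06 against -0.01 over all genes, and none was called by edgeR. The largest changes were those of Steap4, a metalloreductase (-1.62, SE 0.31), Hp, haptoglobin (1.45, SE 0.77), and Slc22a17, a lipocalin 2 receptor (-0.60, SE 0.40). Steap4 was at 1.57, 1.2, 2.04 and 1.33 CPM in irradiated tumors 1 to 4 and at 3.90, 6.88 and 3.27 CPM in controls 1 to 3. Every control lay above every irradiated tumor, with an adjusted p of 0.767 by edgeR and 0.0486 by DESeq2. It was 1 of 2 of the 47 genes with groups apart, against 5.42% of all genes tested there. By role, iron uptake had 2 of 8 genes above 0, heme transport and sensing 3 of 9, heme synthesis 4 of 8, and storage and chaperones 0 of 3.

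In MPNST-like cells 55 of the 60 were tested, 22 above and 33 below 0, with a median of -0.05, and none was called. The largest changes were those of Slc22a17 (-0.88, SE 0.43), Steap4 (-0.80, SE 0.59) and Heph, the ferroxidase hephaestin (-0.58, SE 0.45). Iron uptake had 3 of 12 genes above 0, heme degradation 0 of 3, storage and chaperones 0 of 3 and regulation 6 of 8. Cp, the ferroxidase ceruloplasmin, passed the threshold without the low-count filter in T/NK-like cells (log2 fold change -1.58, edgeR adjusted p = 0.0144) and dendritic-like cells (-2.77, edgeR adjusted p = 0.0145), and in no fit with it.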

How the data were processed

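Per the labels and the study's methods, tumor cells were processed with the 10x Genomics 3′ v3.1 kit (10000 cells loaded per tumor) and Cell Ranger against mm10. The authors deposited filtered UMI counts per gene and cell, with barcodes filtered by Cell Ranger. These raw counts were used as deposited. Whether intronic reads were counted is not given in the sources used here. Cells more than 3 median absolute deviations from the library median in UMIs, genes, mitochondrial or ribosomal share were removed, and cells were clustered (scanpy 1.11.5, 3000 variable genes, 30 components, 20 neighbors, Leiden resolution 1). The 720 called doublets (2.10%) were kept and removed in an alternative. Of 29 clusters, 2 stayed unnamed. Counts were summed per tumor and class (at least 20 cells) and tested with edgeR 4.0.16 (filterByExpr, TMM, quasi-likelihood) in R 4.3.3. DESeq2 1.42.0, RLE factors, no low-count filter, left-out tumors, a replicate block, the technical set, doublet removal and cells gated one by one were alternatives. Tests were checked on simulated counts. Genes named were the 7 members, the 3 listed genes of largest change in macrophage-like and MPNST-like cells, listed genes passing in any fit, and the 3 most correlated genes per member. Members and lists were chosen with earlier results of these data known.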

Additional observations from a re-analysis of the deposited data

How the results depend on the processing

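Over 48 results, 403 alternative values were computed, of which 34 turned direction, 6 moved and 1 passed the threshold. No member was called in macrophage-like, MPNST-like or other classes under any alternative run. Without the low-count filter 1 member was called in the macrophage subsets (Hmox1 in Chil3 Slfn4 Arg1 cells), and by DESeq2 1 other iron gene (Steap4). Over all genes in macrophage-like cells, DESeq2 called 5 and leaving out tumors gave 0 to 1 (1 without irradiated 1). Fitted with a term for the technical set, the log2 fold change of Ftl1 in macrophage-like cells was -0.014 and that of Slc11a1 in MPNST-like cells 0.18. Slc11a1 in MPNST-like cells was 0.17 without doublets and 0.22 with cells gated one by one, and Tfrc there was 0.0092 with gated cells. With gated cells the median level of Fth1 in macrophage-like cells was 9447 CPM and that of Slc11a1 in MPNST-like cells 0.306 CPM, and the macrophage-like fold changes were 0.43 for Slc11a1, 0.25 for Ftl1, 0.19 for Fth1, 0.17 for Hmox1 and 0.14 for Cd163. Without thinning, the irradiated minus control differences in shares of cells were 3.14 points for Hmox1, 11.3 points for Slc11a1 (3.37 with thinning) and 0.257 points for Tfrc in macrophage-like cells, and 2.22 points for Tfrc in MPNST-like cells. The causes were not tested.

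Leaving out each tumor gave log2 fold changes in macrophage-like cells of -0.15 to 0.35 for Hmox1, -0.46 to 0.35 for Cd163, -0.019 to 0.15 for Ftl1, -0.019 to 0.15 for Fth1, 0.0097 (without control 2) to 0.48 for Slc11a1 and -0.57 to 0.079 for Tfrc, and in MPNST-like cells of -0.76 to -0.07 (without control 3) for Hmox1, -0.22 to 0.079 for Slc11a1 and -0.23 to 0.049 for Tfrc. The difference in the Fth1 to Ftl1 ratio in macrophage-like cells ran from -0.210 to 0.164. Differences in shares of cells ran from -3.03 to 1.89 points for Hmox1 and -0.663 to 0.137 points for Cd163 in macrophage-like cells, and from -0.550 to 0.288 points for Tfrc in MPNST-like cells.

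With the replicate number as a block, 0 members, 0 other iron genes and 0 genes over all were called, as without it, and Slc11a1 in MPNST-like cells was 0.012. Same-numbered tumors did not deviate together (correlations over macrophage-like sums of -0.287, -0.172 and -0.026, over MPNST-like sums of -0.450, 0.0070 and 0.125), so the numbers were not taken as pairs. Slc40a1 in macrophage-like cells, with 22 UMIs, was too sparse to be tested.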

Other observations

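A cluster of 50 granulocyte-like cells, too few per tumor for a comparison, held 9 Slc40a1 UMIs in 4 tumors, which was 80.3 CPM (exact Poisson 95% interval 36.7 to 153, counting error only). This pooled level lay above the fibroblast-like range of 2.48 to 21.9 CPM. The same cells had 116 CPM of Slc11a1 (interval 61.8 to 198), 14486 CPM of Fth1 and 4061 CPM of Ftl1, no Cd163 UMI, and 4623 CPM of Lcn2, the iron-siderophore-binding lipocalin, from 518 UMIs in 6 tumors.

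Summed over all retained cells of a tumor, Slc40a1 was at 1.35, 1.23, 1.64 and 1.00 CPM in irradiated tumors 1 to 4 and at 2.44, 3.68 and 1.91 CPM in controls 1 to 3. The groups did not overlap (2-sided exact permutation p = 0.0286, the smallest these 7 tumors can give, adjusted p = 0.2 over the 7 genes). MPNST-like cells held 87.4% of the Slc40a1 UMIs, so this largely repeats the MPNST-like difference above and adds no separate evidence. The share of all genes with groups apart in these sums was not computed. None of the 7 genes passed after adjustment, and the other 6 had adjusted p from 0.7 to 0.943 by the same exact test.

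In macrophage-like cells Slc46a1, a heme and folate transporter named after its values were seen, was also without overlap between the groups, with a log2 fold change of -0.44 (SE 0.18, edgeR adjusted p = 0.767). It was 1 of 2 among the 47 listed genes tested there, and 5.42% of all genes had groups apart. The macrophage-like cluster led by Apoe, C1qc and C1qb had the widest Hmox1 range of the 6, from 185 to 1216 CPM. It was also the shallowest, with a median depth of 0.175 of the library median, against 0.524 to 1.22 in the other macrophage-like clusters. Its ranges of Ftl1 (4608 to 10998 CPM) and Fth1 (12446 to 23620 CPM) were the widest too. The part of depth in these ranges was not tested.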
